A study of Mus musculus with 9 samples.

Results

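The N-MYC peak list of a mouse T-cell lymphoma held 9798 peaks on the 19 autosomes and X, out of 282301 peaks in the 7 lists of the series, and every one of them is described here by the genes it lay at. A peak is a stretch of the genome in which the authors' peak caller found more sequenced fragments than in the background. All distinct peaks of that list on chromosomes 1 to 19, X and Y were taken, and 0 lay on Y. The study profiled lymphoma cells from the thymus of C57BL/6J mice, and the labels call the tumours MYCN-driven. It used ChIPmentation, in which a transposase adds sequencing adapters to chromatin while it is held by the antibody. The 9 samples were 2 inputs, not used here, and 7 immunoprecipitations with 1 library each: N-MYC, EZH2 and SUZ12 (subunits of Polycomb repressive complex 2), its mark H3K27me3, the acetyltransferase p300, H3K27ac, a mark of active chromatin, and the promoter mark H3K4me3. The N-MYC antibody was labelled as a mouse polyclonal against MYCN. All groups shared strain, tissue and cell type by their labels, which do not give the promoter behind MYCN, the age of the mice, or the animal or pool behind each library. With 1 library per antibody there is no replicate check, so no p-value is given. Intervals are 95% Wilson intervals, which cover counting error in the deposited list alone and treat peaks or genes as independent.

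N-MYC is the MYC-family protein encoded by Mycn. Like MYC it binds DNA as a pair with MAX through a basic helix-loop-helix leucine zipper, prefers the E-box CACGTG, and is found mostly at promoters that are already open. MYC-family proteins are known for driving ribosome production, translation, nucleotide synthesis and cell division, and MYC itself is a common oncogene of T-cell tumours. MYC proteins compete for MAX with the MXD proteins, MNT and MGA, which are repressors.

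The cell type label was checked against promoter H3K4me3, read within 1 kb of a gene start. Of 15 T-cell markers, 13 had an H3K4me3 peak there, including Cd3e with a fold enrichment of 33.2 and Gata3 with 48.9, and Cd8a and Cd8b1 had none. N-MYC peaks lay at 8 of the 15: Tcf7, Gata3, Lck, Bcl11b, Cd5, Cd28, Thy1 and Cd247. H3K4me3 was present at 2 of 8 B-cell markers, 2 of 9 myeloid markers, 1 of 7 thymic epithelial markers and 0 of 7 markers of stroma and endothelium. It was also present at 5 of 5 erythroid markers, with a fold of 19.8 at Hbb-bs, and all 5 carried H3K27ac as well. No marker of these 5 other cell types had an N-MYC promoter peak, and the part of other cells in the lists was not tested.

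The strongest N-MYC peak of the list lay at no protein-coding gene but at the microRNA cluster miR-17-92. It spanned chr14:115040120-115043077 (GRCm38/mm10), with a fold enrichment of 30.8 over background and a −log10 q of 143. Its summit was 1350 bp before the hairpin of Mir17, and all 6 hairpins of the cluster (Mir17, Mir18, Mir19a, Mir20a, Mir19b-1 and Mir92-1) followed on the plus strand, the last starting 2106 bp from the summit. The cluster is a textbook MYC target that is known to restrain apoptosis and cell-cycle inhibitors. The same stretch held peaks of all 6 other lists, with folds of 34.2 for H3K27ac, 28.0 for H3K4me3, 12.1 for H3K27me3, 9.90 for p300, 8.03 for EZH2 and 6.94 for SUZ12. For each hairpin downstream of this peak 1 mature arm is shown, the one best known from textbooks, to show which of these 6 share a seed. The opposite arms are left out. The seed, bases 2 to 8, is in capitals.
miR-17-5p: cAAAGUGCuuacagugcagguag
miR-20a-5p: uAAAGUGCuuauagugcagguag
miR-18a-5p: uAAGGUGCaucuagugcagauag
miR-19a-3p: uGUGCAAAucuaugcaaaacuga
miR-19b-3p: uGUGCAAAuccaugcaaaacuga
miR-92a-3p: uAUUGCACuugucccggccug
The arms miR-17-5p and miR-20a-5p shared the seed AAAGUGC, and miR-18a-5p had AAGGUGC. The arms miR-19a-3p and miR-19b-3p shared GUGCAAA, while miR-92a-3p had AUUGCAC.

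Promoters with strong peaks differed in whether they held an E-box. The 5 sequences shown are RefSeq promoter windows, 250 bases before to 50 after the start, with the highest N-MYC fold among those with the summit inside the window. This choice was made after seeing the data, and the window of Mgme1, which overlaps that of Snx5 on the other strand, was left out. Capitals mark CACGTG and the related CACGCG or its complement CGCGTG, and each sequence reads 5′ to 3′ on the gene's strand.
Eif4h, chr5:134639360-134639659, minus strand: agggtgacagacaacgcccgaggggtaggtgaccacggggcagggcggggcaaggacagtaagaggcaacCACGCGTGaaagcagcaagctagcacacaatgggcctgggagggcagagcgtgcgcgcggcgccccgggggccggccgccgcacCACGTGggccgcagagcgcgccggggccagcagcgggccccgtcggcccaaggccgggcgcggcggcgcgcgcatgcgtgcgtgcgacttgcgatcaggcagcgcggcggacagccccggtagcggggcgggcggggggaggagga
Snx5, chr2:144270523-144270822, minus strand: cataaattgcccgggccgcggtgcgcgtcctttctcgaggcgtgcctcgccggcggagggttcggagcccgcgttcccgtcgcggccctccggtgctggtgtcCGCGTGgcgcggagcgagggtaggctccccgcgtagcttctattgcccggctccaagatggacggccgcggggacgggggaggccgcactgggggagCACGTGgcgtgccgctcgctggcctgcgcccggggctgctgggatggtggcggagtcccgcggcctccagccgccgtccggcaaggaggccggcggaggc
Psme3, chr11:101315963-101316262, plus strand: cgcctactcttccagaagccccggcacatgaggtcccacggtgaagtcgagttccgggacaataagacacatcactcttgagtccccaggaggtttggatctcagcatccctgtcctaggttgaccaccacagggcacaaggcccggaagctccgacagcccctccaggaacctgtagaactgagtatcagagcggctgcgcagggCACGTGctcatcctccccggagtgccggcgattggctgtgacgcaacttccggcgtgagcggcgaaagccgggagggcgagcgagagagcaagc
Tmem268, chr4:63558513-63558812, plus strand: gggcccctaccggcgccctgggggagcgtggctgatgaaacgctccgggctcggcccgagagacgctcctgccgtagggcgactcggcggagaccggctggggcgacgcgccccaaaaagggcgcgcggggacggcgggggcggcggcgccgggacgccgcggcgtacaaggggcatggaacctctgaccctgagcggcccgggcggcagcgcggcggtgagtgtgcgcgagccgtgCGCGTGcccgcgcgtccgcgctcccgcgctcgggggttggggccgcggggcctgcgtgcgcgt
Ccni, chr5:93206446-93206745, minus strand: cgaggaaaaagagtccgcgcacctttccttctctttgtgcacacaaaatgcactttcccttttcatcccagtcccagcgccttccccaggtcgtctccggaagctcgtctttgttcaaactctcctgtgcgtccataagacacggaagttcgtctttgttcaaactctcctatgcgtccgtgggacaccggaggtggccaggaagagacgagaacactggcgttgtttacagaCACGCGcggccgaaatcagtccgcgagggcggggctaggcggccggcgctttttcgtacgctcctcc
Eif4h encodes a partner of the helicase that unwinds mRNA for translation, and its peak had a fold of 18.5. Its window held 1 CACGTG, whose centre was 5.5 bp from the N-MYC summit. Snx5, a sorting nexin, shared a peak of fold 17.8 with Mgme1, a mitochondrial nuclease, and its CACGTG was 156.5 bp from the summit. Psme3, a proteasome activator, had a fold of 17.8 and a CACGTG 132.5 bp from the summit. The windows of Tmem268 (fold 17.7) and Ccni (fold 17.6) held 0 CACGTG and 1 CACGCG each. A promoter without CACGTG in these 300 bases could therefore carry as strong a peak as one with it, and letters outside the window were not read.

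Most N-MYC peaks lay at promoters. A peak was called promoter when its summit was within 1 kb of the start of a protein-coding gene, gene body when it was elsewhere inside such a gene, and intergenic otherwise. For the 4395 of 21887 protein-coding genes without a listed start, both gene ends were used. By this rule 6837 peaks were at promoters (69.8%, 68.9 to 70.7), in 1.97% of the genome, a density 35.5 times that of the genome as a whole. Gene bodies held 1706 peaks (17.4%, 16.7 to 18.2) against 36.7% of the genome, and 1255 peaks were intergenic (12.8%, 12.2 to 13.5) against 61.4%. With the listed starts alone the intergenic share was 28.2% and the promoter share 58.9%. Promoter shares of the other lists, which differ in length and kind of target, were 60.6% for p300, 60.02% for H3K4me3, 57.4% for EZH2, 30.4% for SUZ12, 13.9% for H3K27ac and 4.57% for H3K27me3.

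**Figure D1:**
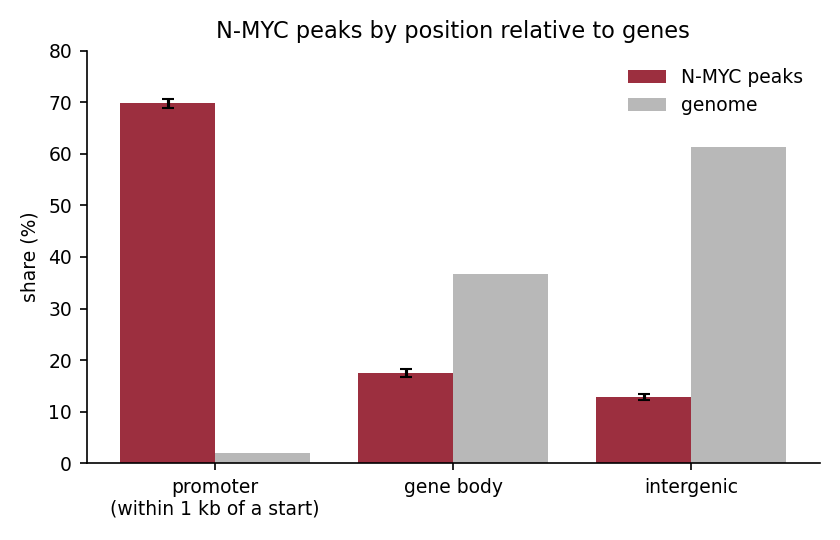
Share of N-MYC peaks (red, percent, with 95% Wilson intervals) and of the genome (grey) in promoters, gene bodies and intergenic sequence. Promoters held 69.8% of the peaks in 1.97% of the genome.

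Promoter peaks were also stronger and wider. Their median fold was 5.75, against 4.74 in gene bodies and 4.81 between genes, and their median widths were 550, 378 and 398 bp. H3K4me3 overlapped 99.1% of promoter peaks, 51.6% of gene-body peaks and 49.3% of intergenic peaks. H3K27ac overlapped 97.9, 92.7 and 89.6% of the same classes, and p300 91.1, 68.0 and 64.5%. EZH2 overlapped 76.2% of promoter peaks, 25.4% of gene-body peaks and 18.4% of intergenic peaks, whereas the Polycomb mark H3K27me3 overlapped 3.01, 3.52 and 4.22%. The classes thus differed by more in H3K4me3 and EZH2 than in H3K27ac.

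Summits clustered tightly on gene starts. For 5771 promoter peaks with a listed start within 1 kb, the position was read from the nearest listed start. The median summit was 15 bp downstream of it, with quartiles at 100 bp upstream and 143 bp downstream. Upstream summits made up 46.1% (44.8 to 47.4), and 76.6% of summits lay within 250 bp of the start. A single protein-coding gene owned 5951 of the promoter peaks (87.0%), while 872 peaks (12.8%) served 2 genes and 14 peaks served 3 or more. Genes in the 748 divergent pairs, which start close together on opposite strands, had a peak in 72.5% of 1483 cases (70.2 to 74.7), against 29.98% of 16009 other genes with a listed start. Divergent promoters were more often marked by H3K4me3. Among genes with that mark the shares were 75.8% and 61.9%, and the H3K4me3 fold was also higher at divergent genes, with a median of 30.5 against 25.6. In such a pair 1 peak can be counted for both genes.

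**Figure D2:**
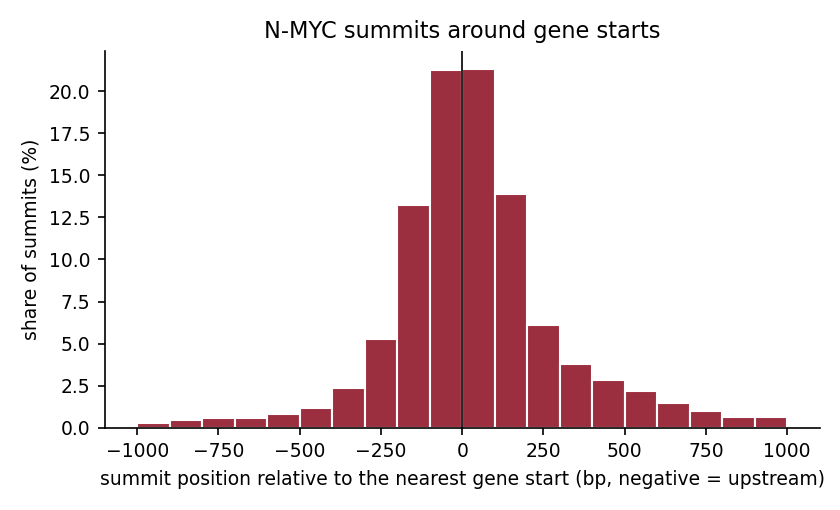
Position of N-MYC summits around the nearest listed gene start, in bp on the x axis (negative is upstream), as percent of 5771 summits per 100 bp bin. The distribution is centred close to the start, with a median of 15 bp downstream.

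At gene level, 7081 of 21887 protein-coding genes had an N-MYC promoter peak, a background of 32.4% against which every gene list below is read. Nearly all of them, 7035 genes, also had H3K4me3 at the start. Of the 11155 genes with H3K4me3, 63.1% had N-MYC, and of the 5579 with H3K4me3 of at least the median fold (26.5) 78.1% had it. The fold of a gene's strongest promoter peak had a median of 5.98, with quartiles of 4.67 and 7.95. The 4120 genes with H3K4me3 but no N-MYC peak had a weaker H3K4me3 peak (median fold 19.2 against 29.7), more often had H3K27me3 (28.4% against 7.69%), and less often p300 (47.4% against 93.6%). The 46 genes with N-MYC but no H3K4me3 had a median N-MYC fold of 4.28, and 69.6% of them carried H3K27me3. A missing peak says only that no call was made.

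The strongest promoter peak belonged to Ran, the GTPase of nuclear transport, at chr5:129019414-129021029 with a fold of 25.2. Its summit was 328 bp upstream of the start. Pcbp1, an RNA-binding protein, followed with 24.4 at chr6:86525698-86527772, and Uck2, a kinase that salvages uridine and cytidine, with 22.5 at chr1:167283387-167285337. Ctps, which makes CTP, had 20.9, and Pole4, a subunit of DNA polymerase epsilon, had 20.7. The next genes were Laptm4a, a lysosomal membrane protein, with 20.5 and Kansl2, a subunit of a histone acetyltransferase complex, with 20.1. Nsun2, an RNA methyltransferase, shared its peak of 19.9 with Srd5a1, and Fubp1, named for its binding upstream of MYC, shared one of 19.3 with Dnajb4. Rack1, a protein of the small ribosomal subunit, had 18.8, Eif4h 18.5, and Ube2cbp and the import receptor Tnpo1 18.4 each. Summits of these 15 genes lay from 55 bp (Rack1) to 782 bp (Dnajb4) from the start. All 15 promoters also held p300, H3K27ac and H3K4me3 peaks, and none held SUZ12 or H3K27me3.

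Gene lists were then compared by their share of members with a promoter peak, first among all members and then among members with H3K4me3, where the background is 63.1%. Of the 34 lists, 28 lay above the background of all genes and 6 below it. Among members with H3K4me3, 23 lay above 63.1% and 11 below. Many lists hold genes active in most cells, and the second reading sets that aside in part.

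**Figure D3:**
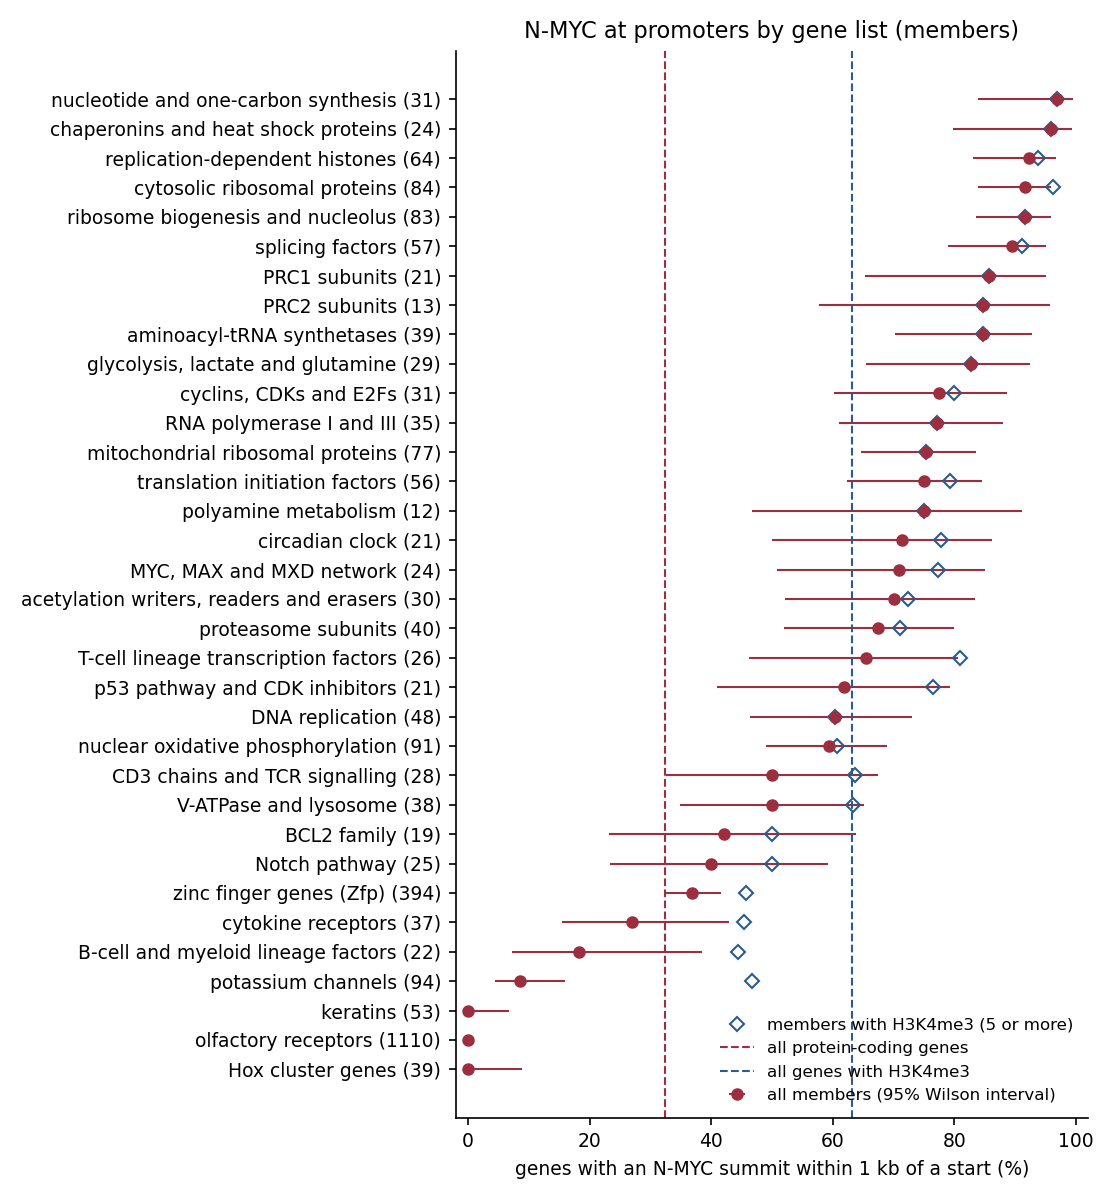
Percent of protein-coding genes with an N-MYC summit within 1 kb of a start, by gene list (number of members in brackets), for all members (red, 95% Wilson interval) and for members with H3K4me3 (blue, lists with 5 or more). Dashed lines mark the backgrounds of 32.4% and 63.1%, and lists of growth and RNA processing lie at the top, while Hox, olfactory receptor and keratin genes lie at 0.

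Genes of protein synthesis were among the most fully covered. Of 84 cytosolic ribosomal protein genes 77 had a peak (91.7%, 83.8 to 95.9), and 96.3% of those with H3K4me3. Their folds ran from 4.27 to 14.5, led by Rpl10a (14.5), Rplp0 (13.8), Rpl13a (13.3) and Rpl32 (12.9). Of 83 genes of ribosome biogenesis and the nucleolus 76 had a peak (91.6%), with Ncl, the nucleolar protein nucleolin, at 17.1, Utp4 at 17, Urb2 at 15.9 and Nolc1 at 15. RNA polymerases I and III, which transcribe ribosomal and transfer RNA, had peaks at 27 of 35 genes (77.1%), with Polr1b at 14.3 and Polr3d at 13.5. All 35 had H3K4me3, and the interval of this list (61.0 to 87.9) includes the 63.1% of such genes. Translation initiation factors had 42 of 56 (62.3 to 84.5%), with Eif4a1 at 15.9 and Eif4a2 at 15.3 after Eif4h. Aminoacyl-tRNA synthetases had 33 of 39 (84.6%), led by Ears2 (16.3) and Gars (12.3). Mitochondrial ribosomal proteins had 58 of 77 (75.3%), led by Mrpl23 (16.2) and Mrpl47 (12.8). The shares of the cytosolic and mitochondrial ribosome lists were apart, since their intervals (83.8 to 95.9 and 64.6 to 83.6) did not overlap.

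Folding and RNA-processing genes were also widely covered. Chaperonins and heat shock proteins had peaks at 23 of 24 genes (95.8%) and the highest median fold among lists with at least 8 covered genes, 8.87. The divergent pair Hspd1 and Hspe1, which encode the mitochondrial chaperonin and its lid, shared a peak of 13.8, and Hsp90aa1 and Hspa9 had 13.8 and 13.6. The cytosolic chaperonin subunits Cct7, Cct2, Cct4, Cct8 and Cct5 ranged from 13.5 down to 9.82. Hspa5, the chaperone of the endoplasmic reticulum, was the member without a peak, although its H3K4me3 fold was 42.8. Splicing factors had 51 of 57 (89.5%), led by Srsf7 (16.7), Snrpd1 (15.4), Snrpf (13.6) and Srsf6 (13.3). Proteasome subunits had 27 of 40 (67.5%) with a median fold of 5.59, below the 5.98 of all covered genes, and Psmc2 led with 10.3. Their share among the 38 with H3K4me3 was 71.1% (55.2 to 83.0), an interval that includes 63.1%.

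Metabolic genes differed by pathway. Nucleotide and one-carbon synthesis had peaks at 30 of 31 genes (96.8%, 83.8 to 99.4). The purine enzymes Paics and Ppat, a divergent pair, shared a peak of 15.9, after Ctps at 20.9 and before Impdh1 at 15.3. The gene without a peak was Tk1, thymidine kinase, which had an H3K4me3 fold of 33.9 and was named after its value was seen. Polyamine genes had 9 of 12 (46.8 to 91.1%), with Odc1, the rate-limiting ornithine decarboxylase, at 14.8, Srm at 13.5, Azin1 at 13.1, Mtap at 9.08 and Amd1 at 8.56, and without a peak at Azin2, Oaz2 and Smox. All 12 had H3K4me3, and the interval of this list includes the 63.1% of such genes. Glycolysis, lactate and glutamine genes had 24 of 29 (82.8%), led by Pfkp (15.8), Ldha (15.3), Glud1 (11.8) and the lactate carrier Slc16a1 (11.7). Nuclear genes of oxidative phosphorylation had 54 of 91 (59.3%, 49.1 to 68.9), which was 60.7% among those with H3K4me3 and close to the background of 63.1%. Restricted to peaks with q-values up to 1e-05, the share of this list was 48.4%. Cox5a led it with 14.9. V-ATPase and lysosome genes had 19 of 38 (34.8 to 65.2%) with a highest fold of 9.60 at Atp6v1d, and 63.3% among those with H3K4me3.

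The cell-cycle lists were split. Cyclins, CDKs and E2F genes had peaks at 24 of 31 (77.4%), with Ccne2 at 15.8, E2f5 at 12.6, Cdk7 at 12.3 and Ccne1 at 11.4. DNA replication genes had 29 of 48 (60.4%, 46.3 to 73.0) although all 48 had H3K4me3, so the share lay near the 63.1% of such genes. Among the 30 with H3K4me3 of at least the median fold it was 53.3%, against 78.1% for all such genes. The replication list was led by Pole4 (20.7) and Dbf4 (15.4), the activator of the Cdc7 kinase, with Rfc1 next at 8.69 and Cdt1 at 8.20. Replication-dependent histones had 59 of 64 (92.2%), but their genes are clustered and often paired, so these came from 43 distinct peaks. H2ac7 and H2bc7 shared the strongest, 14.3. Genes of the p53 pathway and CDK inhibitors had 13 of 21 (61.9%), with Atm at 12.5, Cdkn1b at 6.70, Cdkn2a at 6.41 and Trp53 at 5.63, and without a peak at Cdkn1a, among others. Among the 17 of them with H3K4me3 the share was 76.5% (52.7 to 90.4), an interval that includes 63.1%.

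**Figure D4:**
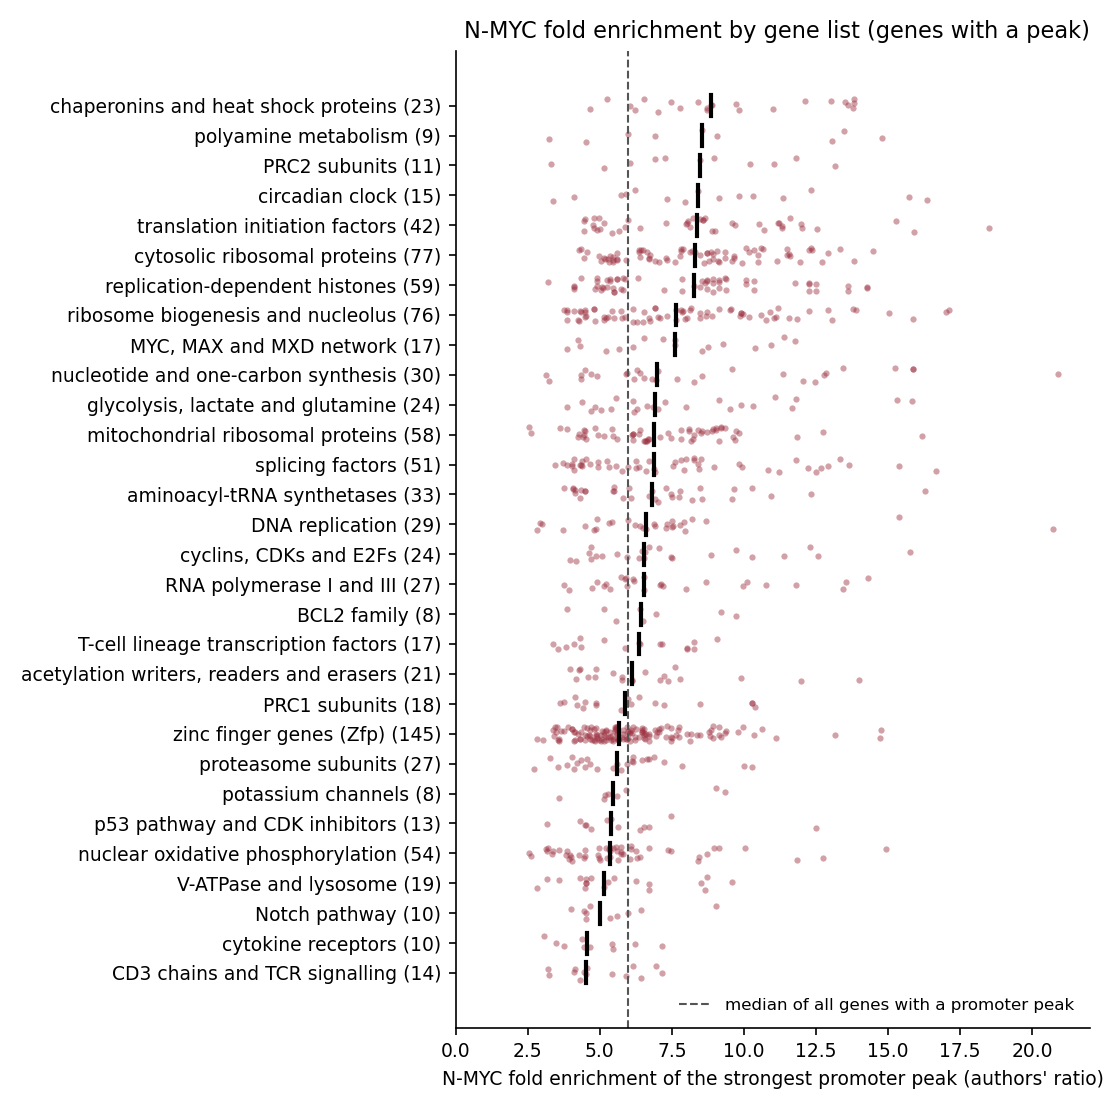
Fold enrichment of the strongest N-MYC promoter peak (x axis, the authors' linear ratio) of each covered gene, by list with at least 8 covered genes (number in brackets). Black bars are medians and the dashed line is the median of all covered genes, 5.98. List medians run from 4.53 for CD3 chains and TCR signalling to 8.87 for chaperonins and heat shock proteins.

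N-MYC peaks covered much of its own network but not the MYC genes themselves. Of 24 genes of the MYC, MAX and MXD network 17 had a peak (70.8%, 50.8 to 85.1). Among the 22 with H3K4me3 the share was 77.3% (56.6 to 89.9), an interval that includes the background of 63.1%. Max, the partner of all MYC proteins, had 11.8, Mga 11.4, Mnt 10.4 and the MAX-dimerising repressors Mxi1, Mxd4, Mxd1 and Mxd3 from 8.74 down to 5.67. Aurka, a kinase known to stabilise N-MYC protein, had 10.9, the ubiquitin ligases Huwe1 and Fbxw7 had 7.59 and 4.25, and the cofactors Ep400 and Trrap 8.56 and 3.87. Myc, Mycn and Mycl had none, nor had Mlx, Mlxipl, Kat5 and Zbtb17. The Mycn promoter had H3K27me3 (fold 21.3), EZH2 (7.81) and SUZ12 (6.93) and neither H3K4me3 nor H3K27ac. The Myc promoter had EZH2 (14.0), SUZ12 (11.4) and H3K27me3 (8.23) together with H3K4me3 (11.1) and H3K27ac (3.63).

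Chromatin regulators were well covered against the 32.4% of all genes. Among subunits of Polycomb repressive complex 2, 11 of 13 genes had a peak (84.6%, 57.8 to 95.7). They included the core genes Ezh2 (13.2), Suz12 (10.2) and Eed (8.95), and the accessory genes Lcor (11.8) and Jarid2 (11). Aebp2 and Phf19 had none. All 13 had H3K4me3, and the interval of this list includes the 63.1% of such genes. Polycomb repressive complex 1 had 18 of 21 (85.7%), with Pcgf5 at 10.4, Kdm2b and Rybp at 10.3, and none at Pcgf1, Pcgf3 and Phc3. Writers, readers and erasers of acetylation had 21 of 30 (52.1 to 83.3%), with the bromodomain gene Brd2 at 14 and the deacetylase Sirt1 at 9.90. Of the 29 with H3K4me3, 72.4% had a peak (54.3 to 85.3), an interval that includes 63.1%.

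Circadian clock genes had N-MYC peaks with a high median fold. The clock is driven by CLOCK and ARNTL, which are also helix-loop-helix proteins that bind E-boxes. Of 21 genes 15 had a peak (71.4%, 50.04 to 86.2), with a median fold of 8.40 where all covered genes had 5.98. Among the 18 with H3K4me3 the share was 77.8% (54.8 to 91.0), an interval that includes the background of 63.1%. The 14 covered genes with H3K4me3 had a median H3K4me3 fold of 20.5, from 5.39 to 31.1, where all genes with both had 29.7. Dbp, a clock output factor, had 16.3, Ciart 15.7, Nr1d2 12.3, Tef 11.4, and the period genes Per2, Per3 and Per1 9.83, 9.14 and 8.40. Strong N-MYC went with both ends of that range, since the H3K4me3 fold was 31.1 at Dbp and 5.59 at Ciart. Clock and Arntl themselves had the lowest folds of the covered genes, 3.38 and 4.12, and Bhlhe40, Bhlhe41, Nfil3, Npas2 and Rora were among those with none. A CACGTG lay in the promoter sequence of 5 of the 17 clock genes with a listed sequence (29.4%, 13.3 to 53.1), against 8.91% of all 17492 genes with a listed sequence. Among the 5874 of these with an N-MYC peak the share was 14.9%, which the interval of the clock genes includes. The 17 clock genes also include some without a peak, such as Bhlhe41.

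T-cell genes were mixed. Lineage transcription factors had 17 of 26 (65.4%), and 81.0% of those with H3K4me3, led by Ets2 (9.07), Lef1 and Ikzf1 (8.26 each) and Ikzf2 (8.03). The list of CD3 chains and T-cell receptor signalling had 14 of 28 (32.6 to 67.4%), 63.6% of those with H3K4me3, and the lowest median fold of the lists plotted, 4.53. Zap70 had 7.15, Nfatc2 6.43 and Bcl10 6.17, while Cd3d, Cd3e, Cd3g and Cd4 had H3K4me3 but no N-MYC peak. In the Notch pathway 10 of 25 genes had a peak (23.4 to 59.3%), with Notch2 at 9.02, Hes1 at 6.42 and Notch1 at 4.01. Of the 20 Notch genes with H3K4me3, 10 had a peak (29.9 to 70.1%). That share was below the background of 63.1%, which its interval includes. Cytokine receptors had 10 of 37 (15.4 to 43.0%), led by Ifnar1 (7.16). Among the 22 with H3K4me3 the share was 45.5% (26.9 to 65.3), an interval that also includes 63.1%. In the BCL2 family, which controls apoptosis, 8 of 19 had a peak (42.1%), among them the killers Bbc3 (9.73) and Bax (9.19) and the survival genes Mcl1 (6.95), Bcl2l1 (6.50) and Bcl2 (6.38). Of the 16 family members with H3K4me3, 8 had a peak (28.0 to 72.0%). That share was also below 63.1%, with an interval that includes it.

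Families typical of other tissues had few or no peaks. H3K4me3 was itself present at only 2 of 39 Hox genes, 1 of 1110 olfactory receptors and 1 of 53 keratins. Hox genes had 0 of 39, which by the limit of 3 counts of the total, used here for counts of 0 in place of a Wilson interval, allows a share of up to 7.69%, and 38 of them had H3K27me3. Olfactory receptors had 0 of 1110 (up to 0.270%) and keratins 0 of 53 (up to 5.66%). Potassium channels had 8 of 94 (8.51%), and B-cell and myeloid factors 4 of 22 (18.2%), which were Cebpb (7), Gfi1 (6.64), Klf4 (4.77) and Irf8 (4.21). Among members with H3K4me3 the shares were 46.7% of 15 channels (24.8 to 69.9) and 44.4% of 9 factors (18.9 to 73.3). Both intervals include the background of 63.1%. Zinc finger genes of the Zfp series, which are not such a family, had 145 of 394 (36.8%, 32.2 to 41.7), near the 32.4% of all genes. Of the 317 with H3K4me3 only 45.7% (40.3 to 51.2) had a peak, below the background of 63.1%.

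Most genes had at most 1 peak, and genes with several peaks were long. Counting summits in the gene span plus 1 kb upstream, 13911 genes had 0, 6593 had 1, 1105 had 2, 208 had 3, 45 had 4 and 25 had at least 5. The median gene length rose in step, from 12.9 kb with 0 peaks to 23.2, 37.4, 68.9, 101 and 151 kb. The 1383 genes with 2 or more peaks fell to 760 once peaks within 1 kb were merged, and to 430 at a fold of at least 5. At the start itself 571 genes had 2 peaks and 42 had 3 or more.

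Tex14, a germ-cell gene at chr11:87405013-87555823, held the most peaks, 10. A peak of fold 8.82 with H3K4me3 lay within 1 kb of its start but wholly before the gene span, at chr11:87404138-87404811. Such a peak can also be counted for a neighbouring gene. The other 9 lay in the gene body with folds from 3.43 to 8.70. Of the 10 peaks, 9 overlapped p300, 9 overlapped H3K27ac, 3 overlapped H3K4me3 and 0 overlapped EZH2. Bcor, a Polycomb corepressor on chromosome X, held 8 peaks and Maml3, a Notch coactivator, held 8, with H3K27ac at each of them. Arid1b, a subunit of the SWI/SNF remodeller, held 7. Csk, the kinase that restrains LCK, held 6 in a span of only 27 kb, all with p300 and H3K27ac. Ralgps1, Zmiz1 and Gm38664 also held 6, and Abcb9 and Anp32a held 5, which 25 genes reached. None of the peaks in Tex14, Bcor, Arid1b or Csk overlapped SUZ12 or H3K27me3.

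Away from promoters the strongest gene-body peak lay in Fbxl22, at chr9:66511361-66512606 with a fold of 19. It was followed by peaks in Klhl35 (17.7), Mga (15.9), Angptl6 (15.8), Dnaaf1 (15) and Lactbl1 (14.9). All 6 overlapped p300, H3K27ac and H3K4me3. The peak in Mga was a second one, 23943 bp from the start. After the miR-17-92 peak, the strongest intergenic peaks lay 9786 bp from the long noncoding RNA Gm30149 (fold 21.1), at the start of Snhg17, a host gene of small nucleolar RNAs (18.1), near Gm31068 (17.4), at 1700113A16Rik (15.3) and at Gt(ROSA)26Sor (14.5), the Rosa26 locus used for transgenes.

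Noncoding genes accounted for part of the peaks outside protein-coding promoters. Of 12727 long noncoding RNA genes 1071 had a summit within 1 kb of a start (8.42%, 7.95 to 8.91). These starts took up 310 of the 2961 peaks outside protein-coding promoters (10.5%). Snhg5 and Snhg15, also snoRNA hosts, had 14.0 and 12.2, and Jpx, which lies in the X-inactivation centre, 13.8. Of 408 tRNA genes 49 had a summit within 1 kb (12%, 9.20 to 15.5), from 42 peaks of which 21 were outside protein-coding promoters, led by n-TLaag4 (13.4) and n-TSgct5 (12.9). Among 1005 miRNA hairpins 124 (12.3%) had a summit in the 5 kb upstream, 36 of them through a peak at no protein-coding promoter. Besides miR-17-92 these included Mirlet7i (9.56), whereas the pair Mir130b and Mir301b (10.1) followed a protein-coding promoter. Hairpins of a cluster can share 1 peak, as those of miR-17-92 do. The 5 kb window differs from that of the other shares, so 12.3% is not comparable with them. Within 1 kb, 69 of 1228 miRNA genes had a summit (5.62%, 4.46 to 7.05). Antigen-receptor segments had nearly none, with 1 of 394 V segments and 0 of 82 J segments.

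The widest peak of the list was also its weakest by fold. It spanned 5829 bp at chr17:39843001-39848829 with a fold of 1.68, 2294 bp from the ribosomal RNA pseudogene Rn18s-rs5. Its −log10 q was 13.2, above the list median of 10.7. Peaks of EZH2, SUZ12, H3K27me3, p300 and H3K27ac covered the same place with folds of 1.34 to 1.67, and whether repeat sequence plays a part there was not tested. The other wide peaks were near Hmga1 (3023 bp, fold 11), in Gm20783 (3011 bp, 10.4), at miR-17-92 (2958 bp) and in Klf10 (2911 bp, 12.8).

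Peak density by chromosome followed the density of active genes. Over the 20 chromosomes with peaks there were 3.72 peaks per Mb, with the most on chromosomes 11 (6.85), 19 (5.46) and 17 (4.99) and the fewest on X (0.920). Across 20 chromosomes density had a Pearson r of 0.839 (Spearman 0.917) with protein-coding genes per Mb, and 0.962 (0.967) with genes per Mb that had H3K4me3. Across the 19 autosomes the Pearson values were 0.868 and 0.972. These are descriptions over chromosomes of a single library, and all points share it. Among genes with H3K4me3 on the autosomes, the share with N-MYC ran from 58.2% on chromosome 17 to 70.4% on chromosome 16.

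Chromosome X stood apart. Of its 334 genes with H3K4me3, 107 had an N-MYC promoter peak (32.0%, 27.3 to 37.2), and its upper limit lay below the lower limit of every autosome. Among X genes with H3K4me3 of at least the median fold the count was 50 of 93 (53.8%), against 73.5 to 85.3% on the autosomes. The H3K4me3 genes of X also had EZH2 (27.8%) and p300 (36.5%) less often than those of the autosomes (67.7 to 80.9 and 73.2 to 83.8%), but had H3K27ac at 90.1% (90.2 to 95.2% on the autosomes). Their median H3K4me3 fold was 22.6, against 24.3 to 28.3 on the autosomes. The number of X copies in the cells is not given, and what it contributes was not tested.

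**Figure D5:**
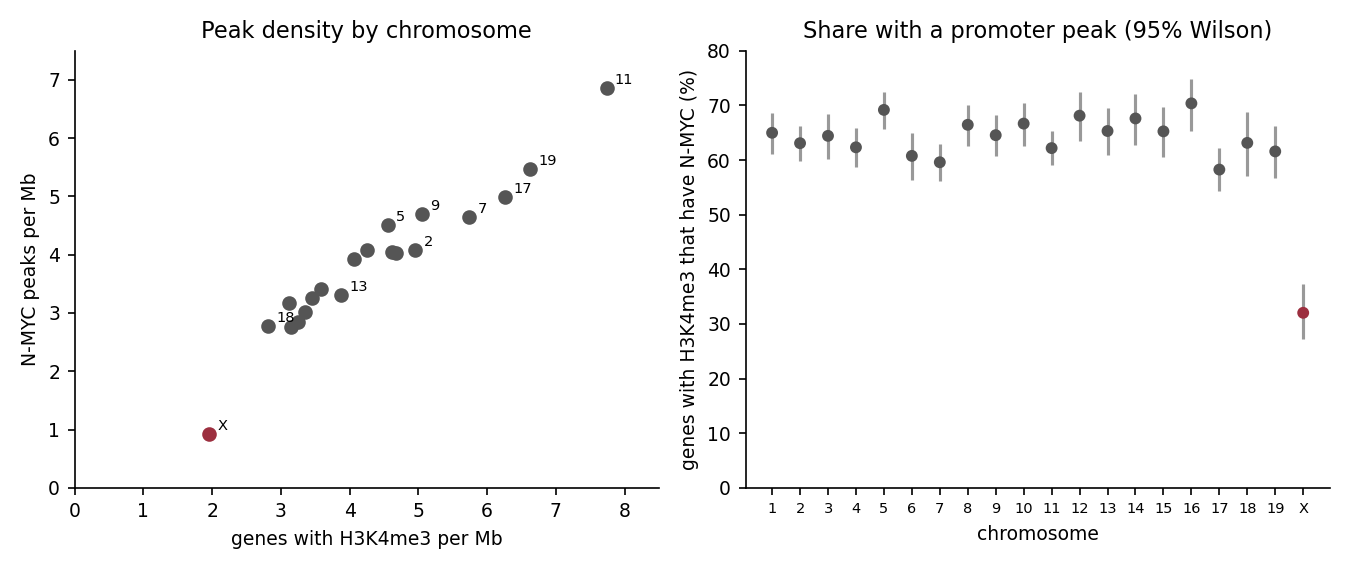
Left, N-MYC peaks per Mb against protein-coding genes with H3K4me3 per Mb, 1 point per chromosome (X in red, some points numbered). Right, percent of genes with H3K4me3 that had an N-MYC promoter peak, with 95% Wilson intervals, where X is at 32.0% and the autosomes are between 58.2 and 70.4%.

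The E-box was more common in promoters with N-MYC. Both strands of 21263 RefSeq promoter sequences of 300 bases were searched for the canonical E-box, for its variant CACGCG, for a myogenic-type E-box with the letters CAGCTG, and for a CREB core with the letters GACGTC. These motifs do not contain each other, but neighbouring matches may overlap, and a match is a description of letters, not a binding site. The canonical E-box CACGTG lay in 13.2% (12.4 to 14.0) of 6881 sequences with an N-MYC peak, 6.69% (5.97 to 7.505) of 4063 with H3K4me3 alone, 4.72% of 10319 with neither and 7.84% of all. The variant lay in 24.02, 11, 4.64 and 12.1% of the same sets. The myogenic-type E-box, which MYC is not known to prefer, went the other way, with 12.4, 15.5, 17.7 and 15.6%. The CREB core, which like the canonical E-box holds a CpG, was also more common with N-MYC (9.36, 5.76, 2.49 and 5.34%), so a motif of another factor moved in the same direction. Promoters with N-MYC held more CpG, a median of 25 per sequence against 17 with H3K4me3 alone and 4 with neither. Within each of 4 ranges of CpG number the canonical E-box remained more common with N-MYC than with H3K4me3 alone: 9.98 against 4.40%, 12.2 against 8.22%, 13.8 against 7.13% and 13.7 against 6.06% from fewest to most CpG. Promoters with neither had 3.15, 8.71, 11.03 and 9.91% in these ranges. In the 2 ranges richest in CpG their intervals (8.89 to 13.6 and 7.52 to 12.97) overlapped those of N-MYC (12.5 to 15.2 and 12.4 to 15.2).

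E-boxes also went with the height and place of the peak. Over 5 equal groups of N-MYC promoters from the weakest to the strongest fold, the canonical E-box lay in 11.1, 11.7, 11.4, 14.2 and 17.5% of sequences. The intervals of the weakest group (9.56 to 12.9) and the strongest (15.6 to 19.6) did not overlap. The variant rose as well, from 18.8% in the weakest group to 33.6% in the strongest. Median CpG per sequence rose over the same groups, with 22, 23, 24, 27 and 29. Where the summit lay inside the sequence the canonical E-box share was 16.7% of 3380, and 9.77% of 3501 where it lay outside. Median CpG was 27 and 22 in these sets. Neither the height nor the place comparison was made at matched CpG, so a part of CpG in them was not tested. In sequences with both, the nearest canonical E-box had a median distance of 52.5 bp from the summit, as had the variant, against 59.5 bp for the CREB core and 90.5 bp for the myogenic-type E-box. The canonical E-box lay within 50 bp of the summit in 48.5% of cases, the variant in 47.7% and the CREB core in 43.9%. For the myogenic type it was 30.9%. Even in the strongest group most sequences, like those of Tmem268 and Ccni shown above, held no canonical E-box.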

How the data were processed

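N-MYC peaks came from 1 ChIPmentation library of MYCN-driven mouse T-cell lymphoma cells, and 6 further lists served as context. The submitters' processing notes name FastQC, Bowtie2, SAMtools, MACS2 and deepTools and the builds mm10 and GRCm38, without versions. Controls, pooling, filters and read numbers are not given in the sources used here, so depth is unknown. The files have no header, and columns were read by the narrowPeak layout. The fold enrichment is a linear ratio over background as deposited by the authors. Significance is deposited as −log10 values, a p-value and a q-value per peak, and the smallest −log10 q was 2.03. The summit is deposited as an offset from the peak start.

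Genes and starts came from RefSeq GRCm38.p6. Starts, and strand, were taken from the promoter table for 17492 of 21887 protein-coding genes. Lists counted as overlapping from 1 bp, and a list was read at a gene within 1 kb of its start. Genome shares are of the 2722 Mb spanned by the annotation or peaks. Promoter and miRNA sequences are RefSeq's, and no genome sequence was used, so sequence under other peaks was not analysed here. Calculations used Python 3.11.15 with pandas 2.3.3 and numpy 2.4.6, and Wilson intervals statsmodels 0.14.6. The class and gene counts were tested on simulated data.

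The members and the 34 gene lists were chosen with earlier results of these data known. Named genes were the 15 of highest promoter fold, the 10 with most peaks (ties in alphabetical order), the 6 strongest gene-body and 6 strongest intergenic peaks, the 5 widest peaks, the 4 strongest members of each list and any member of lists of up to 25, and the genes with most peaks on the densest and sparsest chromosomes. Marker genes were fixed with them. Other genes, among them further members of larger lists, were named after their values were seen. Alternatives varied the window, the q-value and fold limits, merging, the gene set, the gene span and the motif. Some genes that this rule names are not reported here.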

Additional observations from a re-analysis of the deposited data

How the results depend on the processing

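With 1 library there is no replicate to leave out. No paired analysis was possible because each immunoprecipitation group has a single sample. Each value here moved by more than its counting interval or by over 1.5 times. Promoter, gene-body and intergenic shares were 63.3, 22.8 and 14.0% with a 500 bp window, 74.9, 13.4 and 11.7% with 2.5 kb, and 78.1, 11.3 and 10.6% with 5 kb. They were 71.3, 16.6 and 12.2% when any base of the peak counted, and 77.2, 13 and 9.78% at a fold of at least 5. With only q-values up to 1e-05 the first of these shares was 71.4% and the second 16.3%. With all annotated genes the promoter share was 74.2% and the intergenic share 7.92%. With listed starts alone, an alternative chosen after seeing the data, they were 58.9, 12.95 and 28.2%. Genes with 2 or more peaks numbered 864 in the gene span alone, 430 at a fold of at least 5 and 760 with peaks within 1 kb merged. The E-box share was 34.2% with CACGTG or CACGCG and 14.1% at a fold of at least 5. The number of genes with a promoter peak stayed within 1.5 times of 7081 in its 7 alternatives, from 4833 to 7836. Of 135 list shares under an alternative, 110 stayed within their interval and 25 did not. The limit to strong H3K4me3 was also added after seeing the data. Read depth is unknown and limits which weak peaks could be called.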
